A study of Mus musculus with 6 samples.

Results

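The pre-mRNA splicing factor genes examined here are the 69 protein-coding genes of the RefSeq table for GRCm38 whose symbols begin with Srsf and a digit, Hnrnp, Sf3a or Sf3b and a digit, Snrp, Prpf and a digit, or U2af, out of 21887 protein-coding genes on the assembled chromosomes. They fall into 6 families, with 11 Srsf, 21 Hnrnp, 9 Sf3, 12 Snrp, 13 Prpf and 3 U2af genes. Binding of the transcription factor E2F1 was measured by chromatin immunoprecipitation and sequencing (ChIP-seq) in NIH/3T3 cells, an established mouse fibroblast line. The cells carried a stably integrated, doxycycline-inducible construct, holding either E2F1 or nothing (empty vector, EV). Each group had 2 libraries, and both were starved in 0.25% serum for 48 hours before doxycycline was added for 12 hours. The protocol gives 500 ng/ml doxycycline, while the names of the peak lists carry another number, so the dose is not settled. Nothing in the labels says that the 2 libraries of a group came from separate cultures, whether a line was 1 clone, or which antibody was used, and peak lists do not measure how much E2F1 the cells held. The EV input DNA samples, 2 in number, were not analysed here.

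Splicing removes introns from newly made transcripts. U1, U2, U4, U5 and U6 small nuclear ribonucleoproteins (snRNPs) assemble on each intron into the spliceosome, helped by SR proteins (Srsf), which bind exons and recruit the machinery, and by hnRNP proteins, which coat the transcript and often act against SR proteins at the same exon. U2AF and SF3 proteins recognise the end of the intron and the branch site. Sm proteins, which are part of the Snrp family, form the ring on most of these snRNAs. PRPF proteins drive the rearrangements that lead to catalysis. E2F1 is a transcription factor best known for activating genes of S-phase entry, usually at CpG-rich promoters.

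E2F1 peaks were found at most of these genes, in every family. A gene was counted when a peak lay inside it or within 1000 bp of it. In E2F1 replicate 1, 59 of the 69 genes had a peak, against 36.9% of all protein-coding genes. In E2F1 replicate 2 the number was also 59, against 38.2% of all genes. The genes with a peak in both lists numbered 56 (81.2%, Wilson 95% interval 70.4 to 88.6, which covers counting error only), and of all protein-coding genes 34.4% had one. Neither EV list had a peak at any of the 69 genes. In the EV lists only 0.0366% of all protein-coding genes in replicate 1 and 0.407% in replicate 2 had a peak, so 0 of 69 lies near that background and is no result about splicing genes. The share with a peak was 85.5% in each E2F1 library and 0% in each EV library, a difference of 85.5 percentage points. An exact permutation test over the 4 libraries (two-sided) had p = 0.333, which is the lowest p available to groups of 2, so the comparison cannot pass 0.05.

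The promoters shown here are those of the gene with the highest mean fold enrichment in each family among genes with a promoter in the RefSeq table and a summit within 1000 bp of a start in both lists. That of Srsf10 was added after the data were examined because it holds the most E2F words, and that of Hnrnpc because no E2F1 peak was listed at this gene. Each runs from 250 bases before the annotated start to 50 bases from it, 5′ to 3′ on the strand of the gene (RefSeq, GRCm38.p6). Capitals mark, on either strand, the E2F words TTTCCCGC, TTTCGCGC, TTTGCCGC and TTTGGCGC, their shorter forms TTCCCGC and TTGGCGC, the NFY word CCAAT, the ETS word CCGGAAG, the palindromic NRF1 word and the CRE word TGACGTCA.
Srsf3, chr17:29032410-29032709, plus strand: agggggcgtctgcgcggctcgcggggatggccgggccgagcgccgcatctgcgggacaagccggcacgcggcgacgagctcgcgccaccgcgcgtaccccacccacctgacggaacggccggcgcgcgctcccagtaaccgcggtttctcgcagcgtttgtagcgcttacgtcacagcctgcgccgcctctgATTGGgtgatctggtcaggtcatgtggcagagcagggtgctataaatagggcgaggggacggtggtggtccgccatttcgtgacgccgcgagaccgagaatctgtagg
Hnrnpa3, chr2:75659009-75659308, plus strand: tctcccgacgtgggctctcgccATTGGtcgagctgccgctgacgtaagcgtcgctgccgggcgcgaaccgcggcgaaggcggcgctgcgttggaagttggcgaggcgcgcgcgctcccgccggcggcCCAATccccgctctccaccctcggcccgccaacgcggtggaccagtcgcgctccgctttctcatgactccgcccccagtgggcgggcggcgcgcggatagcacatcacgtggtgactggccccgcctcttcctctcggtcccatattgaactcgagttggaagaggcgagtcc
U2af1, chr17:31658705-31659004, minus strand: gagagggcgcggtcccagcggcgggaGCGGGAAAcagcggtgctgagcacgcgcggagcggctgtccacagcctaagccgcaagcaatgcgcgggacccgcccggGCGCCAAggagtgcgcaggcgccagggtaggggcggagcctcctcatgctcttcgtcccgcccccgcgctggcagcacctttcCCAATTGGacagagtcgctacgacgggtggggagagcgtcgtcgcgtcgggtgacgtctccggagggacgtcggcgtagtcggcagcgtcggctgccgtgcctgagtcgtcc
Sf3a2, chr10:80798485-80798784, plus strand: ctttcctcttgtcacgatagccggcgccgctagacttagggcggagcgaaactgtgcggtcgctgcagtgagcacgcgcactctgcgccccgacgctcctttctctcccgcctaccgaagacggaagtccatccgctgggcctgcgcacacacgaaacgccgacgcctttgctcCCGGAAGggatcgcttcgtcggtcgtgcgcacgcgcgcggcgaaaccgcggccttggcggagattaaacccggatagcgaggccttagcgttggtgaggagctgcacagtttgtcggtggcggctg
Snrpf, chr10:93589609-93589908, minus strand: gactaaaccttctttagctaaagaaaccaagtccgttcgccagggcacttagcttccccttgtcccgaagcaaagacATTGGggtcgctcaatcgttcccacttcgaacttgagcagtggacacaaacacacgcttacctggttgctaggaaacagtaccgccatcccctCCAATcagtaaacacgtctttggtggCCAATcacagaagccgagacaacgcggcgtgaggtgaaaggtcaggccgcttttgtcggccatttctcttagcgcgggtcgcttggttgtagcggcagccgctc
Prpf40b, chr15:99294991-99295290, plus strand: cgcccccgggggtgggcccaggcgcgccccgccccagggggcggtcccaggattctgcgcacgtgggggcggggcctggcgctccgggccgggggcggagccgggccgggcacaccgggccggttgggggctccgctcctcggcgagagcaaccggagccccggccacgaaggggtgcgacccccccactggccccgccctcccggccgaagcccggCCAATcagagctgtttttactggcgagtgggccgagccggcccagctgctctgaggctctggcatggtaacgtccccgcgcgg
Srsf10, chr4:135855821-135856120, plus strand: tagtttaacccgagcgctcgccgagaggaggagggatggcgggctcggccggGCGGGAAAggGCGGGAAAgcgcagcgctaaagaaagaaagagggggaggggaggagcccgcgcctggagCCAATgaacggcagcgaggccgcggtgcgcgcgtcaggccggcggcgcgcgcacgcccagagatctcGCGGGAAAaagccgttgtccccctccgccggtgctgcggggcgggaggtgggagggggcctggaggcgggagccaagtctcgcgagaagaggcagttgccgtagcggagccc
Hnrnpc, chr14:52103972-52104271, minus strand: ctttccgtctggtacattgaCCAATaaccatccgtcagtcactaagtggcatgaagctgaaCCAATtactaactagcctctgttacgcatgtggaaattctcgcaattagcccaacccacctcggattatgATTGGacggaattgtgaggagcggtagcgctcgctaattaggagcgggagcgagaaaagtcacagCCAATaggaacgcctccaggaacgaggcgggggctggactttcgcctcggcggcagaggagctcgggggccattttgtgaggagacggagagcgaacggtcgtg

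Of the 6 promoters picked by fold, the E2F words appear in that of U2af1 alone. There TTTCCCGC begins 224 bp before the start and TTGGCGC 145 bp before it, both on the other strand. Of these 6, only Prpf40b had both summits inside the printed window. At Hnrnpa3, U2af1 and Sf3a2 only the summit of replicate 2 lay inside. Both lay outside at Srsf3, 386 and 449 bp before the start, and at Snrpf, 182 and 177 bp after it. The Srsf10 promoter holds TTTCCCGC at 3 places on the other strand, beginning 198, 188 and 62 bp before the start, and the peak summit of E2F1 replicate 2 lay 191 bp before it. The summit of replicate 1 lay 272 bp after the same start. CCAAT is found in the promoters of Srsf3, Hnrnpa3, U2af1, Snrpf, Prpf40b, Srsf10 and Hnrnpc, and CCGGAAG in that of Sf3a2. A match describes the letters only, and a window without a match says nothing about the factor.

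The remaining genes with a peak in both lists and a long E2F word in the promoter were Srsf1, Hnrnpr, Hnrnpul1 and Snrpa. They are shown as stretches of 60 bases around the long word, which is in capitals, so that its position can be compared with the measured summits.
Srsf1, chr11:88047280-88047339, plus strand: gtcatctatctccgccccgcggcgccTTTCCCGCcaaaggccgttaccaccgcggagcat
Hnrnpr, chr4:136311355-136311414, plus strand: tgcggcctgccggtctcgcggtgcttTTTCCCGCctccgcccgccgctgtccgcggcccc
Hnrnpul1, chr7:25754938-25754997, minus strand: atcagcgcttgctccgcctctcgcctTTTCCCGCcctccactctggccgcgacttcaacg
Snrpa, chr7:27195803-27195862, minus strand: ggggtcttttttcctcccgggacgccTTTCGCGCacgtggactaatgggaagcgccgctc

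At Srsf1, an SR protein that acts in both constitutive and alternative splicing, the word begins 67 bp before the start and the summits lay 75 and 44 bp after it in E2F1 replicates 1 and 2. At Hnrnpul1 the word begins 212 bp before the start and the summits lay 344 and 322 bp before it. At Snrpa, which encodes a protein of the U1 snRNP, it begins 76 bp before the start, with summits 249 and 229 bp before it. The Snrpa promoter also holds the shorter form TTCCCGC, which lies between the long word and both summits and is nearer to the summits. The Hnrnpr word begins 217 bp before its start, while the summits lay upstream of it, 121 and 37 bp from another annotated start of the gene.

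Of the 60 splicing factor genes with a promoter in the table, 49 had a peak in both lists. A long E2F word was found in 6 of the 49 (12.2%), against 6.19% of all 6156 protein-coding genes with a promoter and a peak in both lists and 3.29% of all 17492 with a promoter. TTTCCCGC alone was in 5 (10.2%, against 3.20% and 1.61%). The shorter forms TTCCCGC or TTGGCGC, the first of which is contained in TTTCCCGC and the second in TTTGGCGC, were in 15 (30.6%, against 17.6% and 9.94%). CCGGAAG was in 16 (32.7%, against 21.5% and 12.9%) and CCAAT in 25 (51.0%, against 42.4% and 42.3%). The NRF1 word was in 1 (against 2.52% and 1.47%) and TGACGTCA in 2 (against 3.75% and 2.54%). Of the 11 genes with a promoter and without a peak in both lists, 2 held a long E2F word (18.2%), Prpf38a and Snrpn. The shorter forms were in 2 of the 11 (18.2%), CCGGAAG in 4 (36.4%) and CCAAT in 6 (54.5%). TTTCCCGC, the NRF1 word and TGACGTCA were in 0 of them. Long E2F words, CCGGAAG and CCAAT were thus no rarer at the 11 than at the 49, with few genes in each count. TTTCCCGC, the shorter forms, the NRF1 word and TGACGTCA were rarer at the 11. Some of the 11 had a peak in 1 list, namely Hnrnph2, Prpf38a, Prpf8, Sf3a1 and Sf3b6.

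The promoters of the splicing factor genes were mostly CpG-rich, defined as at least 55% G and C with an observed over expected CpG ratio of at least 0.6. This held for 48 of the 60 genes (80%), against 44.1% of protein-coding genes. Of the 48, 42 (87.5%) had a peak in both lists, where the share over all genes with a CpG-rich promoter was 63.0%. Of the other 12, 7 (58.3%) had one, against 13.2% of all genes whose promoters were not CpG-rich. These shares are descriptions of the listed peaks, and whether CpG content accounts for the share at splicing genes was not tested.

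**Figure D1:**
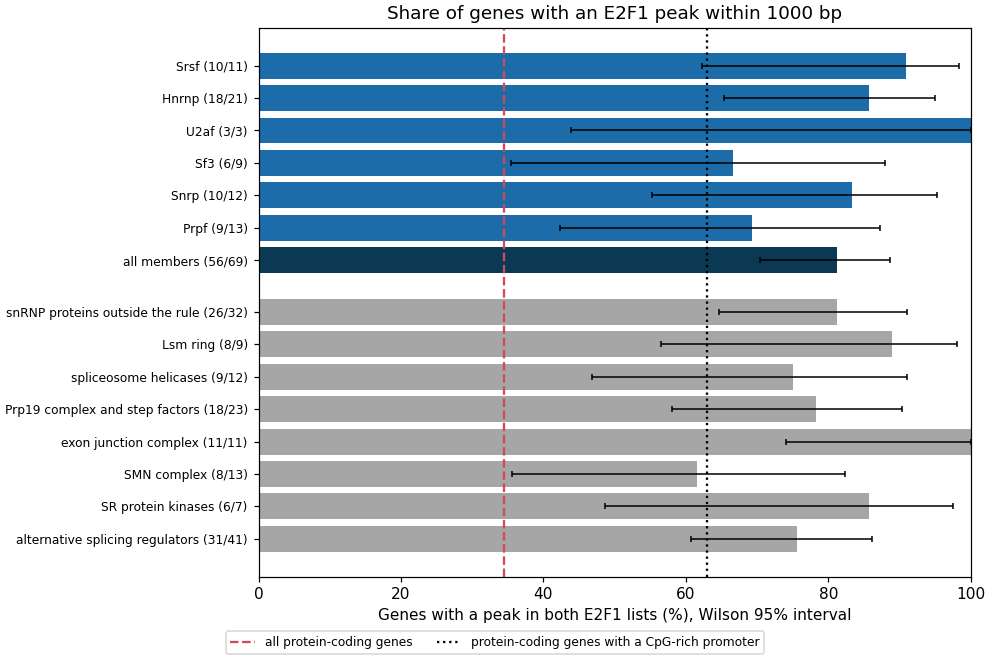
Share of genes with a peak in both E2F1 lists (%) for the 6 families and all 69 splicing factor genes (blue) and for 8 other lists of splicing genes (grey), with Wilson 95% intervals. The dashed line is all protein-coding genes (34.4%) and the dotted line those with a CpG-rich promoter (63.0%), and every bar except that of the SMN complex (61.5%) ends right of both.

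The strength of a peak is given by the authors' fold enrichment, which MACS2, the peak caller named for these data, computes as signal at the summit over local background. It ranks peaks within 1 list and is not normalized between lists. For a gene with several peaks the highest is used. Across the 59 splicing factor genes with a peak in E2F1 replicate 1 the fold ran from 5.82 to 36.8 with a median of 14.9, against a median of 9.73 over all protein-coding genes with a peak. In replicate 2 it ran from 4.21 to 95.8 with a median of 17.8, against 12.0. As a percentile of fold within the list, where 100 is the strongest peak, the median was 77.8 in replicate 1 and 72.2 in replicate 2, against 54.1 and 53.2 for all genes with a peak. Among genes with a CpG-rich promoter the medians were 79.7 and 71.8 for splicing factor genes and 56.4 and 57.1 for all. A peak at or above the list's median fold in both lists was found at 40 of the 69 genes (58.0%), against 16.0% of protein-coding genes. With a limit chosen after the data were examined, 22 of the 59 (37.3%) were in the top 10% of replicate 1 and 19 of the 59 (32.2%) in that of replicate 2, against 11.3% and 10.9% of all genes with a peak.

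The families differed in where their peaks ranked, with no test of that difference. Srsf genes had a median percentile of 93.0 in replicate 1 and 81.6 in replicate 2, Hnrnp genes had 86.5 and 88.7, and the 3 U2af genes had 92.9 and 92.5. The medians of the Sf3 genes (52.0 and 51.1) and of the Snrp genes (57.8 and 54.95) lay close to those of all genes with a peak. Prpf genes were in between, with 62.0 and 68.6.

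**Figure D2:**
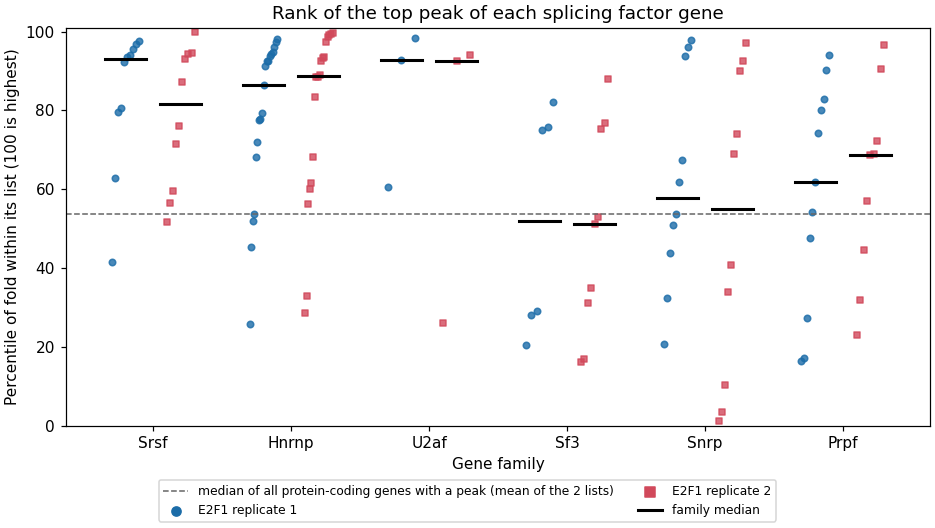
Percentile of fold within its list (100 is highest) of the top peak of each splicing factor gene with a peak, by family, with circles for E2F1 replicate 1, squares for replicate 2 and bars for family medians. The Srsf, Hnrnp and U2af medians lie between 81.6 and 93.0, above the dashed line for all protein-coding genes, while those of Sf3 lie at 52.0 and 51.1.

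Of the SR protein genes, 10 of 11 had a peak in both lists (90.9%). Srsf3, a small SR protein, had the highest mean fold of all the splicing factor genes, a lead that rests on replicate 2. Its fold was 30.9 in E2F1 replicate 1, where it ranked 245 of 7836, and 95.8 in replicate 2, where it ranked 9 of 8027. In replicate 1, U2af2, Hnrnpa0, Snrpd1, Srsf2 and Hnrnpa3 ranked above it. The Srsf3 peak spanned 29031021 to 29033779 on chromosome 17 in replicate 1 and 29031628 to 29033445 in replicate 2, over the start of the gene at 29032660. The peak was strong in both lists, and its log2 ratio of replicate 2 to replicate 1, 1.63, was the highest among the 56 genes with a peak in both. At Srsf2, which is also known as SC35, the folds were 32.9 and 38.3. Srsf4 had folds of 24.6 and 38.8, and Srsf1 had 27.7 and 34.9. The weakest of the 10 was Srsf5, at 8.17 and 13.7, and Srsf7 (11.2 and 11.7) and Srsf6 (15.6 and 12.8) were also at the lower end. Srsf12 had no peak in any list, while Srsf10, a close relative, had folds of 16.0 and 27.2.

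Srsf11 had separate peaks at both of its annotated starts in both lists. The stronger, spanning 158031121 to 158032303 on chromosome 3 in replicate 1, had folds of 23.2 and 19.3. The other, from 158036084 to 158037051, had folds of 6.48 and 13.2. The order of the peaks was the same in both lists, but the gap between them was smaller in replicate 2.

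Of the hnRNP genes, 18 of 21 had a peak in both lists (85.7%), and their peaks were the broadest, with a median width of 2447 bp in replicate 1 and 1876 bp in replicate 2. The highest mean folds were those of Hnrnpa3, Hnrnpa0 and Hnrnpa2b1, followed by Hnrnpr with 26.7 and 57.9. Hnrnpa3 had folds of 32.5, rank 209, and 79.1, rank 28, over the start whose promoter is printed above, and its peak spanned 75658063 to 75661350 on chromosome 2 in replicate 1. Hnrnpa0 had 35.4, rank 141, and 64.7, rank 73, with a peak from 58127262 to 58129742 on chromosome 13 in replicate 1. Hnrnpa2b1, which encodes the A2 and B1 isoforms, had 23.5, rank 577, and 71.0, rank 46. All of these were higher in replicate 2, as were 5341 of the 7537 protein-coding genes with a peak in both lists. Hnrnpa1, a well studied repressor of exon inclusion, had folds of 24.9 and 35.3. Hnrnpk, a poly(C)-binding protein, had nearly equal folds of 28.6 and 28.7.

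The H and F group ranged widely. Hnrnpf had 49.1 in replicate 2 and 23.3 in replicate 1 at one start, and a second peak of 10.3 and 10.7 at another. Hnrnph1 was the weakest of the 18, at 8.65 and 7.79, and Hnrnph3 had 9.66 and 8.38. Hnrnph2, on chromosome X, had a peak of fold 6.49 in replicate 1 and none in replicate 2. The paralogs of this group therefore did not share a level. Hnrnpl, a CA-repeat binding protein, had 2 separate peaks in each list, with folds of 22.1 and 14.3 for the stronger.

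Hnrnpc, an abundant core protein of hnRNP particles, and Hnrnpa1l2-ps2, which is named as a pseudogene although the table lists it as protein-coding, had no peak in any list. Every list keeps only peaks with a −log10 p above 10, so a gene without a peak may still have weaker signal.

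All 3 U2AF genes had peaks in both lists. U2af2, the large subunit that binds the polypyrimidine tract, had folds of 36.8, rank 117, and 37.9, rank 470. In replicate 1 its fold was the highest of all the splicing factor genes. The peak spanned 5061440 to 5063376 on chromosome 7, with its summit inside the gene, 1474 bp from the nearer boundary. Over that boundary itself, replicate 1 alone had a weak peak of fold 5.56, from 5060402 to 5060992. Another weak peak, of 6.95 and 6.16, just beyond the other boundary had its summit 45 and 133 bp from Epn1, the neighbouring gene. U2af1, the small subunit that contacts the AG at the intron end, had 23.7 and 34.1, with a peak from 31657316 to 31659503 on chromosome 17 in replicate 1. The paralog U2af1l4 had 10.8 and 7.38, and those summits lay nearer to the start of Psenen than to its own.

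In the SF3 genes, whose products form the SF3A and SF3B complexes of the U2 snRNP, 6 of 9 had a peak in both lists (66.7%) and all 9 had one in replicate 2. Sf3b2 had the highest mean fold, with 16.5 in replicate 1 and 28.3 in replicate 2, but these were different peaks. The 16.5 was at its own start, where replicate 2 had 14.9. The 28.3 lay 23 bp from the start of Pacs1, beyond the far end of Sf3b2, at a site where replicate 1 had 10.5. Sf3a2 had 14.1 and 19.7, and Sf3b3, whose summits lay nearer to the start of Cog4, had 14.2 and 19.0. The branch-site factor Sf3b1 was among the weaker, at 6.69 and 8.12, with Sf3b4 (6.78 and 8.71) and Sf3a3 (6.09 and 6.31). Sf3a1, Sf3b5 and Sf3b6 had a peak in replicate 2 only, with folds of 12.0, 6.38 and 11.5.

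Among the Snrp genes, 10 of 12 had a peak in both lists (83.3%), and the Sm proteins were split. Snrpd1 had folds of 33.8, rank 174, and 47.2, rank 236. Snrpf had 25.1 and 34.0, with a peak from 93588386 to 93589920 on chromosome 10 in replicate 1, and Snrpe had 28.6 and 30.5. Those 3 Sm genes were in the top 10% of both lists. The other Sm genes were lower, Snrpb with 12.1 and 18.4 and Snrpg with 11.1 and 16.7. Snrpd2 was the weakest of the 10 by mean fold, with 6.12 and 5.73, and Snrpd3 had 8.44 and 4.81. The summits of those Snrpd3 peaks lay 888 and 879 bp from its own start and 227 and 218 bp from that of Gucd1. The replicate 2 peak also reached over the Snrpd3 start. In replicate 1 a separate peak of fold 6.69 covered that start, with its summit 252 bp from it and 182 bp from that of Gucd1.

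Among the Snrp genes specific to 1 snRNP, Snrpc of U1 had 7.10 and 8.47, Snrpa of U1 had 9.30 and 4.21, and Snrpa1 of U2 had 9.69 and 9.66. These lay in the lower part of the family. At Snrpa the summits lay slightly nearer to the start of BC024978 than to its own in both lists, and the replicate 2 peak ranked 7942 of 8027. Snrpb2, the U2 partner of Snrpa1, and Snrpn, an imprinted relative of Snrpb, had no peak in any list.

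Of the Prpf genes, 9 of 13 had a peak in both lists (69.2%). Prpf40b, which is linked to the U1 snRNP, had 21.2, rank 760, and 31.3, rank 766, with a peak from 99293963 to 99295782 on chromosome 15 in replicate 1. The paralogs Prpf38a and Prpf38b were unlike: Prpf38b had 13.8 and 10.3, and Prpf38a had 5.87 in replicate 1 only, with the summit nearer to the start of Orc1. Prpf19, a ubiquitin ligase of the Prp19 complex, had 16.9 and 16.6. The tri-snRNP genes Prpf4 and Prpf3 had 15.7 and 16.5, and 11.1 and 17.8, while Prpf31 had 9.73 and 8.20. The Prpf31 summits lay nearer to the start of Tfpt than to its own in both lists. The kinase Prpf4b was the weakest of the 9, at 6.65 and 7.04. Prpf8, the protein at the catalytic core of the spliceosome, had 5.82 in replicate 1 and no peak in replicate 2, and Prpf6 and Prpf18 had none in any list.

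**Figure D3:**
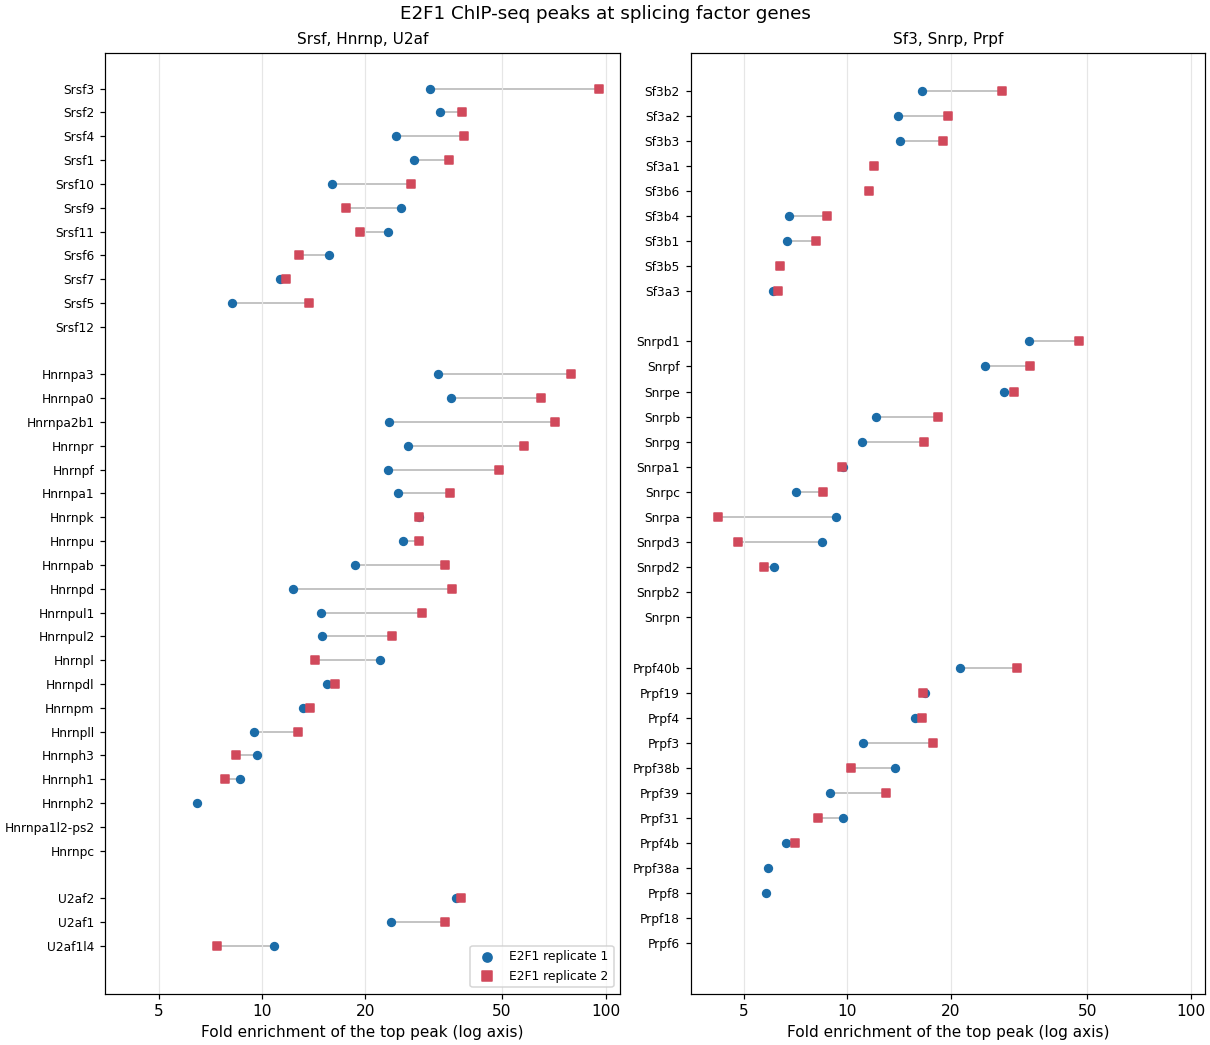
Fold enrichment of the top peak (log axis) at 68 of the 69 splicing factor genes, with circles for E2F1 replicate 1 and squares for replicate 2, ordered by mean fold within a family. Rows without a point are genes with no E2F1 peak, and the widest gap between replicates is that of Srsf3 (30.9 and 95.8).

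Of the 69 genes, 6 had a peak in 1 E2F1 list only and 7 in neither. At least 1 E2F1 list had a peak at 62 of the 69 (89.9%), against 40.7% of all protein-coding genes. Both lists had one at 81.2%, against 34.4%. The gap between these shares, which is the share with a peak in 1 list only, was small in both sets. The 6 genes are therefore no result about splicing genes. The peaks found in 1 list only had folds from 5.82 at Prpf8 to 12.0 at Sf3a1. Those of Sf3a1 and Sf3b6 lay just above the median fold of their list, 11.3, and the other 4 lay below the median of theirs. Over the 56 genes with a peak in both lists the replicates' folds correlated with a Spearman's rho of 0.87 and a Pearson's r of 0.86 on the log2 scale, against 0.71 and 0.73 over the 7537 protein-coding genes with a peak in both. These are descriptions across genes of the same 2 libraries and carry no p. The fold was higher in replicate 2 at 42 of the 56, and at 5341 of the 7537 protein-coding genes. The median log2 ratio was 0.35, against 0.34 over all genes, so the median shift between the lists at splicing genes was close to that at all genes. The top peaks of the 2 lists overlapped at 55 of the 56 genes, the exception being Sf3b2, and at 7366 of the 7537 protein-coding genes, so nearly all overlapped in both sets.

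The top peaks at splicing factor genes had a median width of 1609 bp in replicate 1 and 1127 bp in replicate 2. Over all genes with a peak it was 974 and 844 bp. Hnrnp (2447 and 1876 bp), U2af (1937 and 1413 bp) and Srsf genes (1773 and 1538 bp) were broader than that. Snrp (826.5 and 805 bp), Prpf (992 and 729 bp) and Sf3 genes (1082.5 and 854 bp) were close to it or below. Alternative splicing regulators outside these families had 1540 and 1429 bp. Most summits at splicing factor genes lay near the gene's start, though a neighbour's start was sometimes nearer. The nearest start was the gene's own at 78.0% in replicate 1 and 79.7% in replicate 2, against 84.2% and 84.5% of all genes with a peak. The summit of the top peak was within 1000 bp of an annotated start, or of either boundary for the genes without one in the promoter table, at 57 of 59 genes in replicate 1 (96.6%) and 56 of 59 in replicate 2 (94.9%), against 88.9% and 89.3% of all genes with a peak. Within 250 bp the shares were 61.0% and 67.8%, against 62.7% and 70.2%, so at that distance the splicing factor genes were not above all genes. Among genes with a known strand the summit was downstream of the start at 37 of 52 in replicate 1 (71.2%, against 70.2% of all genes) and 26 of 51 in replicate 2 (51.0%, against 62.2%). The median position was 145 bp and 19 bp downstream. Over all genes these medians were 134 and 60 bp. At Hnrnpu, the scaffold attachment factor, the summits lay 1390 and 1237 bp downstream of the start.

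**Figure D4:**
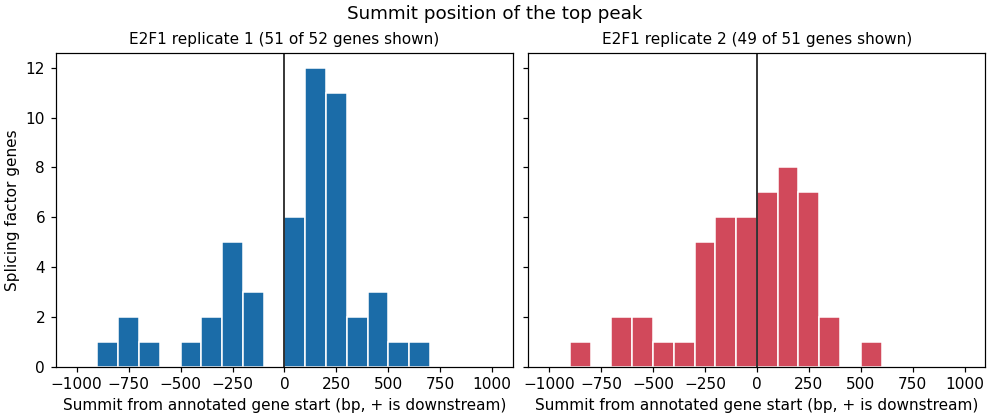
Distance in bp from the annotated start to the summit of the top peak, positive downstream, for splicing factor genes with a known strand in E2F1 replicate 1 (left) and replicate 2 (right). Summits beyond 1000 bp are left out (1 of 52 and 2 of 51), and the tallest bars lie between 0 and 300 bp downstream.

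Several of these peaks were shared with a neighbour. In both lists, 19 of the 56 genes had a top peak that also lay within 1000 bp of the start or boundary of another protein-coding gene. By list the numbers were 22 of 59 (37.3%) in replicate 1 and 21 of 59 (35.6%) in replicate 2, against 25.8% and 25.6% of all genes with a peak. Those with high mean folds included Hnrnpa2b1 with Cbx3, Srsf2 with Mfsd11, Hnrnpa1 with Cbx5 and Hnrnpk with Rmi1. Cbx3 and Cbx5 encode heterochromatin protein 1 proteins. The summit at Hnrnpa2b1 was 7 and 38 bp from the Cbx3 start, and 715 and 684 bp from the nearest start of Hnrnpa2b1 itself. The summits at Hnrnpa1 and Hnrnpk were likewise nearer to the neighbour in both lists, and those at Srsf2 were nearer to Mfsd11 in replicate 1 only. Which gene of such a pair a peak acts on cannot be told from the lists. When only peaks whose summit was nearest to the gene's own start were counted, 42 of the 69 genes (60.9%) had one in both lists, against 29.0% of protein-coding genes.

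Splicing genes outside these families, taken from 8 lists of 148 genes, had a peak in both lists at 117 (79.1%, Wilson 95% interval 71.8 to 84.8), with a background of 34.4%. All 11 genes of the exon junction complex had a peak in both lists, as did 8 of 9 Lsm ring genes, 6 of 7 genes of the kinases that phosphorylate SR proteins, and 26 of 32 snRNP protein genes outside the families. The counts were 18 of 23 for the Prp19 complex and step factors, 31 of 41 for alternative splicing regulators, 9 of 12 for spliceosome helicases and 8 of 13 for the SMN complex, which loads Sm rings onto snRNAs. By median percentile of fold, alternative splicing regulators were highest of the 8 lists, at 79.9 and 78.4. The SMN complex (50.9 and 49.6) and the SR protein kinases (40.0 and 38.4) lay below the medians of all genes with a peak, and the Prp19 complex and step factors, at 57.4 and 41.8, and the Lsm ring, at 73.8 and 52.3, lay below it in replicate 2 only. The differences between these lists were not tested.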

How the data were processed

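Peak lists of 4 ChIP-seq libraries were used, 2 from cells with the inducible E2F1 construct and 2 from cells with the empty vector, grouped and numbered by the sample titles. Trimmomatic, Bowtie2, MACS2, FastQC and ChIPseeker and the build mm10 are named, per the submitters' processing notes, without versions or settings. The lists carry no header and were read as narrowPeak, which has 10 columns. Checked on every peak, the authors' score is their deposited −log10 q-value times 10, to within 1. The fold is the deposited ratio in the seventh column. The deposited −log10 p-value is above 10 for every peak. The lists held 7836 and 8027 peaks for E2F1 replicates 1 and 2 and 70 and 358 for EV replicates 1 and 2. No read totals were used, so the depth is unknown here. The antibody and the control of each list are not given in the sources used here, and the extraction protocol in the labels describes RNA.

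Members and lists were chosen with earlier results of these data known. Genes came from the RefSeq table of GRCm38.p6 (assembled nuclear chromosomes), starts and strand from its promoter table, which matched 60 of the 69 genes. For the rest either boundary stood for the start. Of the listed other splicing genes, 1 symbol was not in the table. Overlap of at least 1 bp within 1000 bp counted. Named were the 3 genes with the highest and the 1 with the lowest mean fold in each family, those in 1 list only or in none, those with 2 or more peaks in both lists, the 5 with the highest mean fold among those sharing a peak with another gene, and paralogs that differed. The values of 1 gene that the rule names are not reported here. Genes named beyond this were chosen after their values were seen. No sequence is shown for genes left out of the promoter table. Libraries were compared by an exact permutation test, in Python 3.11.15 with scipy 1.17.1. The gene assignment was tested on simulated data.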

Additional observations from a re-analysis of the deposited data

How the results depend on the processing

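Of 43 alternatives computed over 5 results, 40 kept their direction or stayed within the spread and 3 moved. The share of splicing factor genes with a peak in both E2F1 lists was 60.9% with only peaks at or above the median score of 312, where the background over all protein-coding genes was 16.9%. It was also 60.9% with only summits nearest to the gene's own start, where the background was 29.0%, an alternative chosen after seeing the data. Both remove peaks by construction. The share of top peaks with a summit near a start was 64.4% within 250 bp, a narrower window by construction, and there the shares of each list, 61.0% and 67.8%, lay below the 62.7% and 70.2% of all genes. Windows of 0, 500 and 2500 bp gave the same 81.2%, and reciprocal overlap of 50% gave 72.5%. The share over all protein-coding genes is not given for these settings, so these values have no background beside them. Without 1 library, the share with a peak was 85.5% in either remaining E2F1 list, the median fold ran from 14.9 to 17.8, the median percentile from 72.2 to 77.8 and the share near a start from 94.9% to 96.6%. The difference between E2F1 and EV stayed at 85.5 percentage points without any 1 library. The replicate block gave the same difference of 85.5 and p = 0.5 (exact permutation of signs), as low as 2 pairs can reach, and with 1 value per library the numbers cannot show whether replicates pair. The lists omit weak sites, and their depth is unknown.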
